A study of Mus musculus with 4 samples.

Results

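The 9 genes described here encode the signalling machinery next to the antigen receptor of T cells: the CD3 chains Cd3d, Cd3e, Cd3g and Cd247, the adaptors Fcer1g, Tyrobp and Hcst, and the kinases Zap70 and Syk. They were chosen by name, by a rule that uses no measured value, though with earlier results of these data known, from the 19339 genes listed in each library. RNA-seq was carried out on TCRβ+CD8αα+ intraepithelial lymphocytes (IELs) from the small intestine of C57BL/6 mice. The cells had been sorted as CD45+CD4-TCRβ+CD8α+CD8β-. Control mice were Kdm6b fl/fl. Kdm6b-deficient mice carried the same floxed alleles together with CD4Cre, a Cre transgene active from the late double-negative stage of thymocytes, so that deletion was not limited to IELs. Each genotype was represented by 2 libraries, replicates 1 and 3, and each library held pooled RNA of 3 mice. Age was not given in the sources used here.

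T cell receptors have almost no signalling tail of their own. The CD3 chains carry it for them in the form of ITAMs, paired tyrosines that Lck phosphorylates and on which the tandem SH2 domains of Zap70 or Syk then dock. Fcer1g (FcRγ) and Tyrobp (DAP12) carry ITAMs for Fc receptors and natural killer (NK) and myeloid receptors, and Fcer1g can replace the Cd247 product ζ in the receptor complex of CD8αα+ IELs. Hcst (DAP10) has no ITAM and recruits PI3K and Grb2 behind NKG2D. Zap70 is the main kinase of this family in mature T cells, whereas Syk is the main one in B cells, mast cells and myeloid cells.

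The coding sequences are shown because the ITAM is what unites the adaptors and separates Hcst from them. A search of the GENCODE M21 principal transcripts for a tyrosine codon followed 3 codons on by a leucine or isoleucine codon, repeated after 6 to 8 codons, found 8 ITAMs in 6 of the 9 genes. Cd247 had 3, the CD3δ, CD3ε and CD3γ genes and the adaptors Fcer1g and Tyrobp had 1 each, and Hcst, Zap70 and Syk had 0. Capitals mark the tyrosine and the leucine or isoleucine codons, and in Hcst the tyrosine and methionine codons of the YxxM motif. The letters of a YxxM motif also occurred 1 time in Cd3g, 2 times in Zap70 and 3 times in Syk.
Cd3d: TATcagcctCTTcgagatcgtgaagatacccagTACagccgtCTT
Cd3e: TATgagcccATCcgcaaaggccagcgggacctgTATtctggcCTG
Cd3g: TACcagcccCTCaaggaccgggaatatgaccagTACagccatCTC
Cd247 ITAM 1: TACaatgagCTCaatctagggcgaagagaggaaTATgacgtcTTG
Cd247 ITAM 2: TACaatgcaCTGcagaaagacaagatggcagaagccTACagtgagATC
Cd247 ITAM 3: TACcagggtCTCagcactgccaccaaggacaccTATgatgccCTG
Fcer1g: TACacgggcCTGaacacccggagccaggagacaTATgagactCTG
Tyrobp: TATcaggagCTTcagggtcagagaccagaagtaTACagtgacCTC
Hcst: TACatcaacATG

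Each of the 8 ITAMs was split over 2 exons, so the genomic interval contains an intron, whereas the Hcst motif lay inside 1 exon. On GRCm38 the intervals were chr9:44986095-44986311 on the plus strand for Cd3d, chr9:44999549-45000440 on the minus strand for Cd3e and chr9:44970735-44971268 on the minus strand for Cd3g. The Cd247 motifs lay at chr1:165856451-165857454, chr1:165858473-165859260 and chr1:165859819-165861042, all on the plus strand. Fcer1g lay at chr1:171229889-171230072 on the minus strand, Tyrobp at chr7:30415670-30417382 on the plus strand and Hcst at chr7:30417821-30417832 on the minus strand. The spacing between the core motifs was 7 codons in each ITAM except the second of Cd247, where it was 8. The genes form close groups in the genome: Cd3g and Cd3d are 1337 bases apart, Cd3d and Cd3e 11682 bases, and Tyrobp and Hcst 129 bases. Cd247 overlaps Pou2f1 and predicted genes, and Zap70 overlaps 1 predicted gene. Whether counting used the strand was not stated, so reads of overlapping genes may not have been separated there.

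Expression was given as FPKM, a fragment count corrected for gene length and library size, which allows levels to be compared between genes. FPKM totals lay between 578491 and 646671 per library. Steps between the low FPKM values gave relative depths of 0.873 to 1.06. They were sought only in a narrow window, which limits how far such ratios can lie from 1. They therefore cannot show how far the depths differed. Genes at 0 FPKM numbered 4531 and 2773 in control replicates 1 and 3 and 3119 and 1625 in Kdm6b-deficient replicates 1 and 3. The total number of reads is unknown and no counting interval was computed. The labels name separate libraries without saying how the mouse pools were formed, so the p-values measure the spread between these libraries, part of which may be technical.

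The targeted gene was examined first. Kdm6b, the H3K27 demethylase gene, was 16.5 and 16.0 FPKM in control replicates 1 and 3. In the libraries labelled Kdm6b-deficient it was 18.2 FPKM in replicate 1 and 11.1 FPKM in replicate 3. Replicate 1 was therefore above both controls at the level of the whole gene (log2 fold change of the groups −0.18, SE 0.29, adjusted p = 0.886, limma). The files hold no values by exon, so whether transcripts without the floxed part contributed was not tested. Directions below are those of the libraries labelled Kdm6b-deficient against the control libraries, and the members are also given without replicate 1 of the former.

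The libraries were then compared for marker genes of T cells and of other cells. Summed FPKM of Ptprc, Cd2, Cd7, Itgae and Cd8a was 9158 and 6908 in the controls and 6471 and 4938 in the libraries labelled Kdm6b-deficient. All 5 were at 14.8 FPKM or higher in every library. The 22 epithelial markers ran the other way, with sums of 1590 and 5087 in the controls and 4802 and 12319 in the other libraries, Krt8 being the most abundant in each library. The T cell sum was thus highest where the epithelial sum was lowest and lowest where it was highest. Most of the T cell sum was Cd7, at 7843 and 5779 FPKM in the controls and 5492 and 4129 FPKM in the others. Cd2 was higher in Kdm6b-deficient replicate 1 than in control replicate 3, and Itgae was lowest in Kdm6b-deficient replicate 1. In such bulk samples fewer cells of a type and less RNA per cell cannot be told apart.

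**Figure D1:**
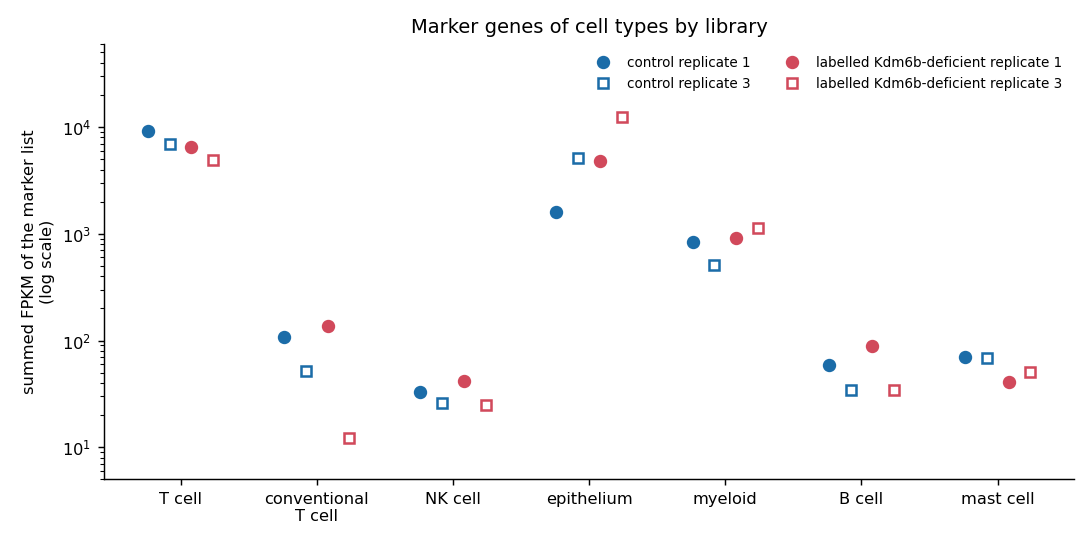
Summed FPKM of 7 marker lists in each library, on a log scale; each point is 1 library, blue for control and red for the libraries labelled Kdm6b-deficient, circles for replicate 1 and squares for replicate 3. The T cell sum ran from 9158 in control replicate 1 to 4938 in Kdm6b-deficient replicate 3, while the epithelial sum ran from 1590 to 12319 over the same pair.

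All 9 members were detected in every library and passed the filter of at least 1 FPKM in at least 2 libraries. None differed between the genotypes by limma at an adjusted p of 0.05, and 0 of 9 had an unadjusted p under 0.05. Over all 12009 genes tested, 0% were called and 642 had an unadjusted p under 0.05. Cd3d, Fcer1g and Zap70, 3 of the 9, were lower in both libraries labelled Kdm6b-deficient than in both controls, an ordering that 18.6% of all genes tested showed. Syk alone of the 9 was higher in both, as were 18.4% of all genes. The members' median log2 fold change was −0.45, against 0.001 over all genes tested. The 8 members other than Syk were each highest in control replicate 1 and lowest in Kdm6b-deficient replicate 3, the libraries with the highest and the lowest T cell sum.

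**Figure D2:**
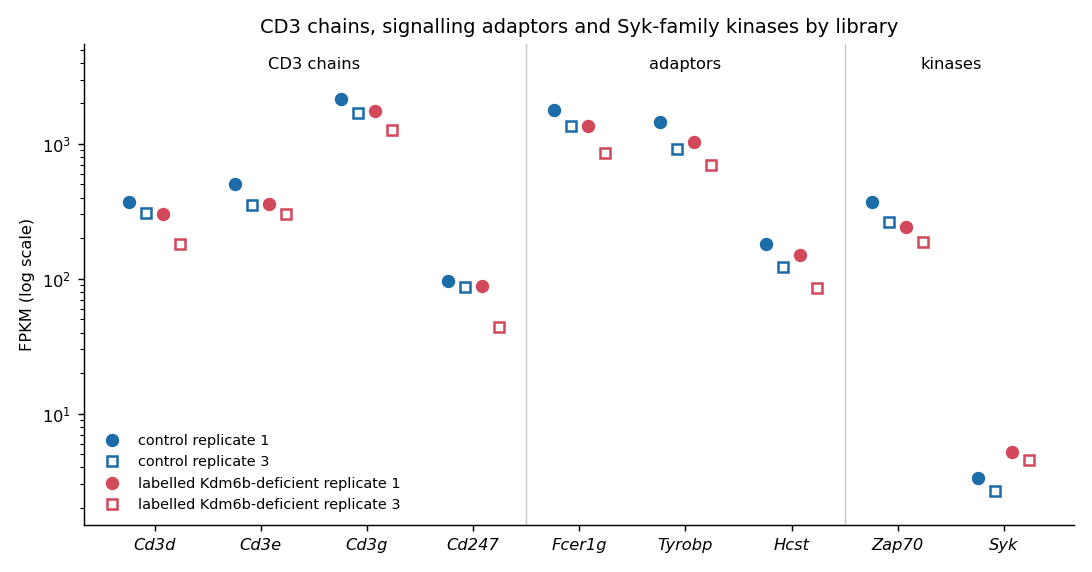
FPKM of the 9 members in each library on a log scale, with circles for replicate 1 and squares for replicate 3, blue for control and red for the libraries labelled Kdm6b-deficient. Levels spanned from 2167 FPKM for Cd3g to 2.69 FPKM for Syk, and Syk is the member whose red points both lie above the blue ones.

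Among the CD3 chains, Cd3g was the most abundant. The CD3γ gene measured 2167 and 1702 FPKM in control replicates 1 and 3 and 1762 and 1259 FPKM in Kdm6b-deficient replicates 1 and 3. The groups overlapped, since Kdm6b-deficient replicate 1 lay above control replicate 3 (log2 fold change −0.37, SE 0.30, adjusted p = 0.787, limma). It ranked between 16 and 49 among the 19339 genes by FPKM.

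Cd3e, the ε chain shared by both CD3 heterodimers, was 505 and 352 FPKM in the controls and 357 and 304 FPKM in those labelled Kdm6b-deficient. Here too the groups overlapped, by a few FPKM (log2 fold change −0.36, SE 0.24, adjusted p = 0.765). Cd3d, which encodes the partner of ε in the other heterodimer, was 368 and 307 FPKM in the controls and 301 and 182 FPKM in the others. Its groups did not overlap, but control replicate 3 and Kdm6b-deficient replicate 1 were only a few FPKM apart (log2 fold change −0.52, SE 0.29, adjusted p = 0.755).

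Cd247, which encodes the ζ chain with its 3 ITAMs, had the lowest level of the CD3 group. It measured 96.3 and 86.9 FPKM in the controls and 88.6 and 44.2 FPKM in those labelled Kdm6b-deficient. A single library stood low, replicate 3, and the other 3 lay close together (log2 fold change −0.54, SE 0.34, adjusted p = 0.761). Without that library the log2 fold change was −0.05, and without Kdm6b-deficient replicate 1 it was −1.03.

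Of the adaptors, Fcer1g was the most abundant, at 1785 and 1367 FPKM in the controls and 1357 and 852 FPKM in those labelled Kdm6b-deficient. Both of the latter lay below both controls, replicate 1 narrowly so (log2 fold change −0.54, SE 0.32, adjusted p = 0.757, limma). Mast cells use the same chain in their IgE receptor. The α and β chains that define this receptor were near 0. Fcer1a was 0.79 and 0 FPKM in the controls and 0.24 and 0 FPKM in the others, and Ms4a2 was 0 in 3 libraries and 0.1 in Kdm6b-deficient replicate 3. Of the mast cell list, 7 of 8 genes were listed and its summed FPKM lay between 41.1 and 69.4, most of it Kit, which was lower in both libraries labelled Kdm6b-deficient. Mcpt1, a mast cell protease gene, was 1.03 and 0 FPKM in the controls and 1.58 and 4.52 FPKM in the others. How far mast cells contributed to the Fcer1g values was not tested.

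Tyrobp, the ITAM adaptor of NK and myeloid receptors, was 1454 and 920 FPKM in the controls and 1029 and 696 FPKM in those labelled Kdm6b-deficient. The groups overlapped (log2 fold change −0.45, SE 0.33, adjusted p = 0.776). Tyrobp is also a gene of macrophages. The summed FPKM of 15 myeloid markers was 830 and 510 in the controls and 922 and 1128 in the others. None was at 0 in all libraries. Of the 15, 10 were higher in both libraries labelled Kdm6b-deficient, beside 18.4% of all genes tested. Among the 10 were the low genes Fcgr1 and Flt3. Csf1r, Cd14, Itgax, Cx3cr1 and C1qa overlapped between the genotypes. Tyrobp was lowest in Kdm6b-deficient replicate 3. The myeloid sum was highest there, and most of it was Lyz2, at 626 FPKM. The NK markers Eomes and Ncr1 were at 0.16 FPKM or lower and at 2.48 FPKM or lower in every library, and the summed FPKM of the 5 NK markers lay between 25.0 and 41.9. Most of that sum was Klrb1c, at 24.2 and 17.1 FPKM in the controls and 27.2 and 17.8 FPKM in the others. Whether myeloid and NK cells contributed to the Tyrobp values was not tested.

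Hcst, whose gene lies tail to tail with Tyrobp and whose product carries the YxxM motif shown above, was 182 and 122 FPKM in the controls. It was 151 and 85.0 FPKM in those labelled Kdm6b-deficient. The higher and the lower library of each genotype had the same replicate number, and the groups overlapped (log2 fold change −0.39, SE 0.34, adjusted p = 0.797). Without Kdm6b-deficient replicate 3 the log2 fold change of Hcst was 0.01.

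Zap70 was far more abundant than Syk in every library. Zap70 was 374 and 263 FPKM in the controls and 243 and 187 FPKM in those labelled Kdm6b-deficient. The groups did not overlap (log2 fold change −0.55, SE 0.25, adjusted p = 0.755), and Zap70 had the lowest unadjusted p of the members, 0.0752. Syk was 3.36 and 2.69 FPKM in the controls and 5.24 and 4.53 FPKM in the others, a mean of 3.02 ± 0.474 against 4.88 ± 0.502 (SD, n = 2). Both libraries labelled Kdm6b-deficient were above both controls, and the gap was wider than the distance between libraries of a genotype (log2 fold change of FPKM + 1 of 0.55, SE 0.30, adjusted p = 0.755, limma). The log2 fold change was 0.43 to 0.67 when any 1 library was left out, with Syk still higher in the libraries labelled Kdm6b-deficient. Among markers of cells that use Syk, Lyz2, the most abundant of the myeloid list, was 365 and 253 FPKM in the controls. It was 396 and 626 FPKM in the others. Of the 15 myeloid markers, 10 were higher in both of the latter, beside 18.4% of all genes tested. Csf1r, Cd14, Itgax, Cx3cr1 and C1qa of that list overlapped between the genotypes. The summed FPKM of the B cell markers was 58.6 and 34.6 in the controls and 88.2 and 34.1 in the others, with Pax5 at 0.1 FPKM or lower. Cd79b was 28.4 to 33.5 FPKM, and Jchain, which carried most of the movement of the sum, was 16.7 and 0.94 FPKM in the controls and 48.8 and 0.13 FPKM in the others. Any contribution of myeloid and B cells to the Syk values was not tested.

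The order of the members by level was the same in each of the 4 libraries but for 1 pair. From high to low it was Cd3g, Fcer1g, Tyrobp, Cd3e, then Zap70 and Cd3d, then Hcst, Cd247 and Syk. Zap70 and Cd3d changed places, with Cd3d above Zap70 in 2 libraries and below it in the other 2. Compared across libraries, neighbours in this order overlapped except for Tyrobp and Cd3e, Zap70 and Hcst, and Cd247 and Syk. The lowest Cd3g value of 1259 FPKM, for example, was below the highest Fcer1g value of 1785 FPKM. Cd247 and Syk were the neighbours furthest apart as a ratio, with the lowest Cd247 value, 44.2 FPKM, still above the highest Syk value, 5.24 FPKM.

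The replicates of a genotype were often further apart than the genotypes. Between the controls the members differed by 0.15 to 0.66 on the log2 scale, and between the libraries labelled Kdm6b-deficient by 0.17 to 0.99. The distance within the latter group was larger than the genotype difference for 6 of 9 members, and that within the controls for 3 of 9. Without Kdm6b-deficient replicate 1, the remaining library was below both controls for 8 members, as it was for 39.4% of all genes tested. The log2 fold changes were then −0.88 for Cd3d, −0.47 for Cd3e, −0.61 for Cd3g, −0.87 for Fcer1g, −0.73 for Tyrobp, −0.80 for Hcst, −0.74 for Zap70 and 0.46 for Syk. Without control replicate 3, both libraries labelled Kdm6b-deficient were below the remaining control for 8 members, beside 36.5% of all genes tested.

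To compare the members relative to T cell genes, FPKM were divided by a library factor, the geometric mean of Ptprc, Cd2, Cd7, Itgae and Cd8a, none of which is a member. The factors were 1.41 and 0.993 for the controls and 1.001 and 0.714 for the libraries labelled Kdm6b-deficient. On this scale the median log2 fold change of all genes tested was 0.437, and each value is best read against that shift. The 8 members other than Syk then lay between −0.07 (Zap70) and 0.13 (Cd3e), which is 0.31 to 0.50 below the median of all genes. Cd3e, Cd3g, Tyrobp and Hcst changed sign under this scaling, and none of the 9 passed the adjusted threshold (Syk adjusted p = 0.601). Zap70 remained lower in both libraries labelled Kdm6b-deficient, as did 1.67% of all genes. Its margin was narrow, 262.6 in Kdm6b-deficient replicate 3 against 264.5 in control replicate 3. Cd3g and Syk were higher in both, as were 40.0% of all genes. Without Cd2 in the factor, Zap70 and Cd3g no longer separated the genotypes.

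On the same T cell scale Zap70 was nearly level, at 265 and 265 in the controls and 243 and 263 in the other libraries. Cd3d was 261 and 309 in the controls and 301 and 255 in the others, and Tyrobp was 1031 and 927 against 1028 and 976. Syk was 2.38 and 2.71 in the controls and 5.23 and 6.35 in the others (log2 fold change 0.93, SE 0.38), which is 0.50 above the median of all genes. With the mean of the epithelial markers as a covariate in limma, Syk was 0.74 (SE 0.42, adjusted p = 0.645) and the other members lay between −0.14 and 0.23.

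**Figure D3:**
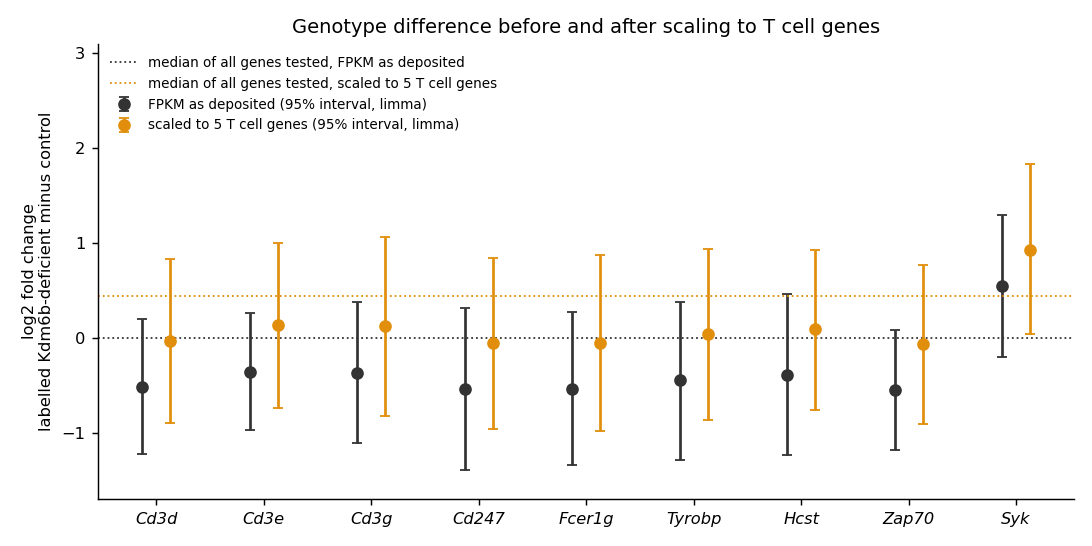
Log2 fold change of each member, libraries labelled Kdm6b-deficient minus control, with 95% limma intervals, from FPKM as deposited (black) and after scaling to 5 T cell genes (orange); dotted lines give the median of all 12009 genes tested, 0.001 and 0.437. The orange points of the members other than Syk lie between −0.07 and 0.13, below the orange line, and Syk lies above the line at 0.93.

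Ratios between members inside a library do not depend on the scaling between libraries, and 7 were computed. The ratio of Fcer1g to Cd247, the ITAM chains that can stand in for each other in the receptor complex, was 18.5 and 15.7 in the controls and 15.3 and 19.2 in the libraries labelled Kdm6b-deficient. The genotypes overlapped fully, with a log2 difference of 0.01. The ratio of Syk to Zap70 was 0.00899 and 0.0102 in the controls and 0.0216 and 0.0242 in the others. It was 2.38-fold higher in the libraries labelled Kdm6b-deficient (log2 difference 1.25), and it was the only 1 of the 7 ratios whose groups did not overlap. The two-sided exact permutation p was 0.333, the smallest that 2 libraries against 2 can give, so no ratio could pass a threshold of 0.05.

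The other 5 ratios overlapped between genotypes. Cd3e to Cd3d lay between 1.15 and 1.67 and Cd3g to Cd3d between 5.55 and 6.92, both with Kdm6b-deficient replicate 3 highest. Tyrobp to Fcer1g lay between 0.673 and 0.817, Hcst to Tyrobp between 0.122 and 0.146, and Fcer1g to Zap70 between 4.55 and 5.59. Their log2 differences were 0.01 to 0.16.

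**Figure D4:**
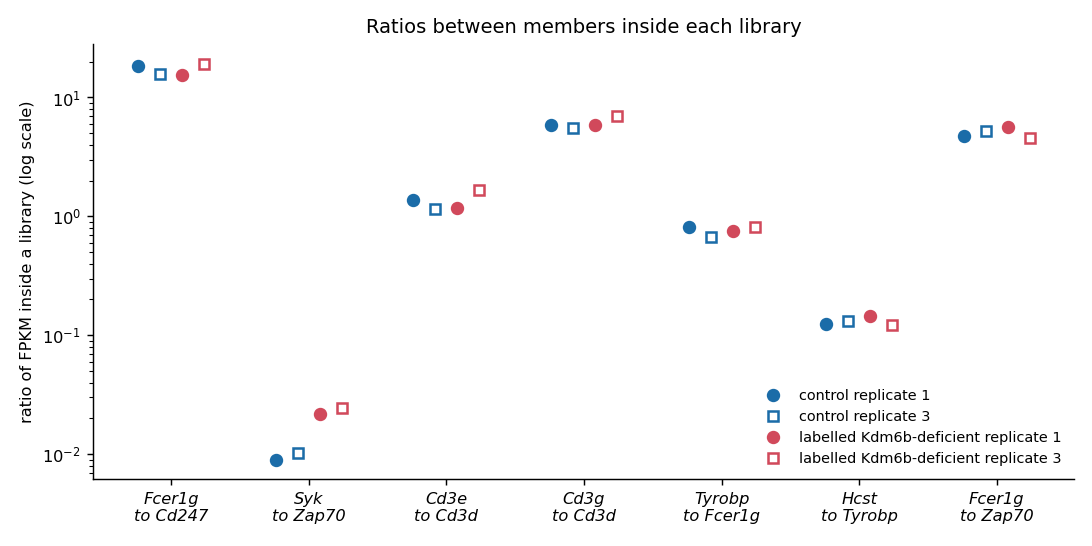
Ratios of FPKM between members inside each library, on a log scale, with circles for replicate 1 and squares for replicate 3, blue for control and red for the libraries labelled Kdm6b-deficient. Syk to Zap70, from 0.00899 and 0.0102 to 0.0216 and 0.0242, is the ratio in which the colours separate.

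Genes around the members in the pathway were described from lists. Of 8 receptor chain genes, Ptcra was the 1 analysed here, at 0.26 FPKM or lower, and the constant regions of the α, β, γ and δ chains were not analysed here. All 35 genes of proximal T cell receptor signalling were tested, with 0 called by limma and 3 at an unadjusted p under 0.05. Of these 35 genes, 15 were lower in both libraries labelled Kdm6b-deficient, beside 18.6% of all genes, and 0 were higher in both. Their median log2 fold change was −0.39, near that of the members, and 0.08 after T cell scaling, where 3 were lower and 6 higher in both, beside 1.67% and 40.0% of all genes. Trat1, which encodes a transmembrane adaptor of the receptor, was 43.6 and 43.2 FPKM in the controls and 30.2 and 22.0 FPKM in the others (log2 fold change −0.73, SE 0.22, adjusted p = 0.755). The log2 fold change was −0.65 for the adaptor Lax1 and −0.62 for the ubiquitin ligase Cblb, whose groups did not overlap either.

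Of 19 receptors that pair with Fcer1g, Tyrobp or Hcst, 18 were listed and 10 tested. None was called by limma and 0 had an unadjusted p under 0.05. Here 4 of the 10 were higher in both libraries labelled Kdm6b-deficient, beside 18.4% of all genes, and 0 were lower in both, with a median log2 fold change of 0.27. After T cell scaling 9 of the 10 were higher in both, beside 40.0% of all genes, and the median was 0.62 against 0.437 for all genes. The 4 were Trem1, a Tyrobp-coupled receptor of neutrophils and monocytes (1.09), Siglech of plasmacytoid dendritic cells (0.58) and the Fc receptors Fcgr4 (0.47) and Fcgr1 (0.37). Of these, 3 were low: Trem1 was 0.48 and 1.81 FPKM in the controls and 4.66 and 2.34 FPKM in the others, and Fcgr1 and Siglech did not exceed 2.65 FPKM. Each of these 3 reached 1 FPKM in 1 control library and passed the filter through the libraries in which it was high. The counts of 4 and 9 and the medians of 0.27 and 0.62 are therefore no support for a difference. These are genes of myeloid cells, whose marker sum was also higher in both of these libraries, and its part in them was not tested. Of 6 other ITAM or hemITAM genes 3 were tested, and none separated the genotypes (median −0.07). After T cell scaling 2 of the 3 were higher in both, beside 40.0% of all genes (median 0.40).

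Of 11 effectors of Syk kinases and Hcst, 10 were tested, with 0 called by limma, 3 at an unadjusted p under 0.05, 2 lower in both and 2 higher in both, beside 18.6% and 18.4% of all genes (median −0.18). Blnk, the adaptor that Syk phosphorylates in B cells and macrophages, was 2.62 and 2.81 FPKM in the controls and 6.30 and 9.15 FPKM in those labelled Kdm6b-deficient (log2 fold change 1.21, SE 0.32, adjusted p = 0.755). Btk, the Tec kinase of the same cells, was 0.81 and 0.71 FPKM in the controls and 1.66 and 1.83 FPKM in the others (0.64). Btk passed the filter only through the libraries in which it was high, so its place among the genes higher in both is no support for a difference. The lower genes were Plcg2, the phospholipase Cγ of B and myeloid cells, at 57.3 and 50.3 FPKM in the controls against 30.9 and 41.0 FPKM, and Pik3cd, the PI3K catalytic subunit of leukocytes, at 110.0 and 87.0 FPKM against 70.2 and 60.7 FPKM (both −0.58). The shares of effectors lower and higher in both were near those of all genes. After T cell scaling 6 of the 10 were higher and 0 lower in both, beside 40.0% and 1.67% of all genes, with a median of 0.29.

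**Figure D5:**
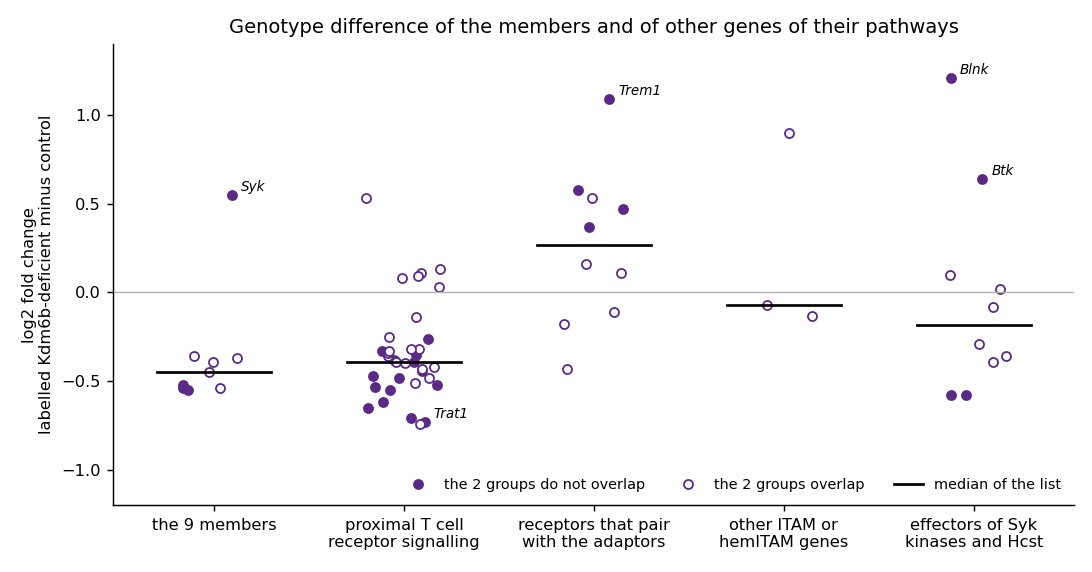
Log2 fold change, libraries labelled Kdm6b-deficient minus control, of the 9 members and of the tested genes of 4 pathway lists; each point is a gene, filled where the 2 groups do not overlap, and black bars are list medians. The medians were −0.45 for the members, −0.39 for proximal receptor signalling, 0.27 for the receptors, −0.07 for other ITAM genes and −0.18 for the effectors.

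For each member the tested genes of at least 10 FPKM with the most similar profile over the 4 libraries were listed, by the root mean square difference of centred log2(FPKM + 1). Over only 4 libraries, with 8 members highest in the same library and lowest in the same library, such likeness is a description. Cd3d was closest to Cd27 (difference 0.0137), Ubn1 and Lck, the kinase that phosphorylates ITAMs, which was 915 and 793 FPKM in the controls and 753 and 461 FPKM in the others. Cd3g was closest to Nosip, Fgl2 and 6330403K07Rik, Cd3e to Etnk1, Slc48a1 and Cyth1, and Cd247 to Samsn1, Rrad and Usp1. Fcer1g was closest to Arid5a, Chst12 and Cd1d1, Tyrobp to Zfp958, Dtx1 and Kbtbd4, and Hcst to Ptpn7, Braf and Lats2. Zap70 was closest to Neil1, Klk8 and Irgm2. Syk was closest to Rcc1l, H2-Eb1 and Avpi1, of which H2-Eb1, a class II MHC chain of antigen-presenting cells, was 181 and 153 FPKM in the controls and 265 and 218 FPKM in the others.

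The cells were also checked for conventional T cells, which carry the same CD3 chains. Cd8b1 was 1.64 FPKM or lower in every library, while Cd4, whose product the sort had gated out, was 30.6 and 10.1 FPKM in the controls and 30.5 and 3.17 FPKM in those labelled Kdm6b-deficient. Cd5, Cd28 and Thy1 were also lowest in Kdm6b-deficient replicate 3, and the summed FPKM of these 5 markers was 108 and 51.4 in the controls and 138 and 12.3 in the others. Replicate 1 was above replicate 3 in both genotypes for 4 of the 5. The γδ T cell list could be read from 3 of its 7 genes, at sums of 1.2 to 2.48 FPKM. Its constant region genes Trdc, Trgc1, Trgc2 and Trgc4 were not read, so the low sums cannot show that γδ T cells were absent. The part of conventional T cells in the member values was not tested.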

How the data were processed

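RNA of sorted IELs, pooled from 3 mice per library, was sequenced on a HiSeq instrument by a company. Alignment to mm10 used HISAT and Bowtie2, gene quantification by the authors used RSEM, and the submitters' processing notes name Bowtie2 2.2.5 and RSEM 1.2.8. The deposited values are FPKM, already scaled by the authors to transcript length and mapped fragments. The annotation and the strand setting were not given in the sources used here.

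The 4 libraries, 2 per genotype, were used as deposited. Of 19339 identifiers, 18467 matched a RefSeq symbol (GRCm38.p6) and 872 did not. Values were taken as log2(FPKM + 1), so that fold changes of low genes are understated. A gene entered the fit at 1 FPKM or more in 2 or more libraries, which left 12009. The linear model was limma 3.58.1 under R 4.3.3 (lmFit, then eBayes with trend, 3.52 prior degrees of freedom), two-sided, with Benjamini-Hochberg adjustment over all of them and a threshold of 0.05. The fit was tested on simulated data with 200 changed genes. Ratios were compared by an exact permutation test. ITAM codons came from GENCODE M21 (GRCm38).

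Alternatives were another pseudocount (0.1), no filter or a filter of 5 FPKM, median-of-ratios, quantile and T cell scaling, a replicate block, an epithelial covariate, no eBayes trend, each library left out, and ratios of FPKM + 1. T cell scaling without Cd2 was added after seeing the data. The members, lists and tests were chosen with earlier results of these data known. Named beside the members and markers were, of each pathway list, up to 4 genes with the largest difference among those whose groups did not overlap, and the 3 genes closest in profile to each member. A gene that this rule names in the list of proximal receptor signalling is not reported here.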

Additional observations from a re-analysis of the deposited data

How the results depend on the processing

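Syk kept its positive log2 fold change under each alternative that tested it (0.38 to 0.93), and none passed the threshold except Zap70 under the replicate block. Same-numbered libraries deviated together (correlation 0.56 over 12009 genes), but with 2 pairs and no statement in the labels the number was not taken as a pairing. The replicate block called 1 member, Zap70 (−0.55, SE 0.13, adjusted p = 0.0294, limma), 5 pathway genes and 1019 genes in all, against 0, 0 and 0 without it. The epithelial covariate called 4 pathway genes and 270 genes, and T cell scaling 1 gene. Cd3e, Cd3g, Tyrobp and Hcst were no longer negative under T cell scaling (0.13, 0.12, 0.04, 0.09), without Cd2 in it (0.11, 0.10, 0.02, 0.07) and with the covariate (0.00, 0.01, 0.11, 0.23). Cd3d, Cd247, Fcer1g and Zap70 stayed negative but near 0 under T cell scaling (−0.03, −0.06, −0.05, −0.07) and with the covariate (−0.08, −0.05, −0.06, −0.14). The SEs of these 8 were 0.36 to 0.40 under T cell scaling and 0.20 to 0.23 with the covariate. The number of members lower in both libraries labelled Kdm6b-deficient was 1 under quantile normalization and T cell scaling, 0 without Cd2, and 3 to 8 with a library left out. The number higher in both was 2 under T cell scaling and 1 without Cd2 in it. It was 0 with a filter of 5 FPKM, which Syk did not pass. With a library left out, Hcst ran from −0.80 to 0.01, Cd3d from −0.88 to −0.16, Cd3e from −0.62 to −0.09, Cd3g from −0.61 to −0.12, Cd247 from −1.03 to −0.05, Fcer1g from −0.87 to −0.20, Tyrobp from −0.78 to −0.12, Zap70 from −0.81 to −0.30, and the log2 ratio differences from −0.16 to 0.17 (Fcer1g to Cd247; −0.00 with FPKM + 1), −0.08 to 0.41 (Cd3e to Cd3d), 0.03 to 0.27 (Cd3g to Cd3d), −0.05 to 0.23 (Tyrobp to Fcer1g), −0.08 to 0.18 (Hcst to Tyrobp), −0.13 to 0.16 (Fcer1g to Zap70) and 1.16 to 1.34 (Syk to Zap70). In these fits a lone library was assumed to vary like the other group. The causes were not tested. Total reads are unknown, which limits what can be said of genes near 1 FPKM.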
